A study of Mus musculus with 16 samples.

Results

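Both groups compared here received celastrol, a triterpenoid from plants known to reduce eating in obese mice, and the groups differed in how they were fed. The comparison was PF+CS minus CS, celastrol with a food ration against celastrol with free food, in RNA from the hypothalamus. It was taken from the count columns named for the PF/CS and CS groups and used 8 of the 16 libraries of the series, 4 in each group. All mice were C57BL/6J mice made obese on a high-fat diet and injected with DMSO daily for 1 week, and 4 days of treatment followed. The CS group ate freely and was injected in the peritoneum with 100 µg of celastrol per kg daily. PF+CS mice received the same celastrol and a ration of 0.5 g of the high-fat diet per day, of which 0.34 g came in the dark phase and 0.16 g in the light phase. The labels put the average intake of celastrol-treated mice at 0.8 g, so the ration lay below it. Tissue was collected 6 h after a last injection given at about 8 am. Ration against free food without celastrol, PF minus Veh, shares no library with this comparison and is set beside it: Veh mice received DMSO and free food, PF mice DMSO and the ration. The intake of Veh mice is not given here, so the cut in food need not be equal in both comparisons. The labels give no ages, cages, litters or collection days, and do not say whether each library is 1 mouse, so p-values measure only the spread between these libraries.

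The hypothalamus senses food shortage through hormones and nutrients and sets hunger, glucocorticoid release and daily timing. Fasting is known to raise glucocorticoids, whose receptor switches on a shared set of stress and fuel genes in neurons, glia and vessels. The circadian clock is a feedback loop of transcription factors that meals can reset in many tissues, and inflammatory signals reach the hypothalamus through the endothelium of its vessels.

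The group names carry a limit. The authors deposited 5 comparison tables, and the baseMean of each could be rebuilt from 8 count columns with a relative error of at most 6.47e-15. The table named for PF and PF+CS was computed from the CS and PF+CS columns, and in all 3 of 5 table names did not match their columns. Exchanging the names PF and CS resolves all 5. Titles of the samples and names of the count columns go together, and those names are used here. If the table names were right instead, the comparison below would show celastrol added under the ration, and the one without celastrol would show celastrol under free food.

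Library totals were 8109525 to 11567422 counts in CS and 7862917 to 11116425 in PF+CS. Levels are in CPM, counts scaled to a common library size, and differences are log2 changes with their standard error (SE). A gene was called at a Benjamini-Hochberg adjusted p of at most 0.05 by edgeR's quasi-likelihood test over all 14775 genes tested. Hypothalamic identity was present in both groups: the 12 marker genes tested, such as Nkx2-1 and Sim1, summed to 712 to 789.5 CPM in CS and 678 to 775 CPM in PF+CS, and none was called. Of 7 pituitary and 6 blood markers, 1 each had enough counts to be tested, Cga at up to 6.71 CPM and Alas2 at up to 7.75 CPM. Markers of meningeal fibroblasts, which line the brain's surface, were low in CS 2 (253 CPM) and PF+CS 4 (233 CPM) and at 1082 to 1420.4 CPM in the other 6 libraries. Ribosomal precursor RNA (Rn45s) held 4.03% of counts in PF+CS 4 and 2.44 to 3.04% in the other 7.

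With the ration, 10 of 24 glucocorticoid-induced genes rose and 1 fell, and 7 of 16 genes rose in both the acute-phase and the activated-endothelium list. Of cytosolic chaperones 5 of 24 rose. Falls were called for 5 of 20 clock genes, 2 of 22 cholesterol synthesis genes and 3 of 10 markers of mature oligodendrocytes, while most members of every list did not pass. In all, 392 genes were called (2.65% of those tested), 264 higher (1.79%) and 128 lower (0.866%) in PF+CS. Changes of at least 1.5-fold were seen in 128 of them, 103 higher and 25 lower, and changes of at least 2-fold in 59, 51 higher and 8 lower. The 4 and 4 libraries did not overlap for 333 of the 392, against 10.1% of all genes tested. The 392 were called on these same libraries, so their separation follows largely from the call and carries no support. That holds wherever a called gene is said below to have groups without overlap. The median log2 change over all genes tested was 0.0036. In bulk tissue, fewer cells of a type and less RNA per cell cannot be told apart.

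PF+CS 4 lay nearest to the CS group of the 4 PF+CS libraries in 208 of the 264 genes called higher and in 105 of the 128 called lower. Over the genes called higher its median distance from the CS mean was 0.236 on the log2 scale, against 0.456 to 0.498 in the other 3. Over those called lower it was -0.178, against -0.345 to -0.392. Without PF+CS 4 the count rose to 954 of the 14775 genes tested, 573 higher and 381 lower. List counts from that fit are to be read beside these totals. Where PF+CS 4 lies nearest to CS, leaving it out widens the difference by construction, so calls gained in this way carry no support. The count was 122 without PF+CS 1, 125 without PF+CS 2 and 155 without PF+CS 3. It was 113, 221, 208 and 125 without CS 1, 2, 3 and 4. All 392 genes kept their direction in each of these fits, and 79 of them (20.2%) kept their call in all 8. Whether the low meningeal markers or the high Rn45s share of PF+CS 4 contribute to its position was not tested.

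**Figure D1:**
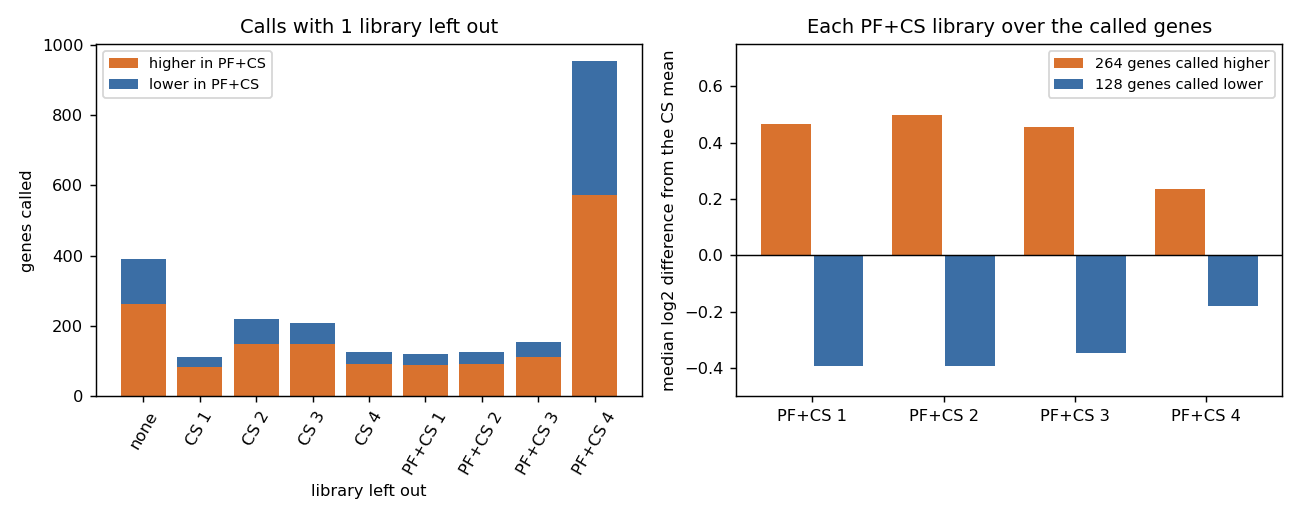
Left, genes called in PF+CS minus CS (vertical axis, stacked by direction) with all libraries and with each of the 8 libraries left out. Right, for each PF+CS library, the median log2 difference from the mean of the 4 CS libraries over the 264 genes called higher and the 128 called lower. PF+CS 4 lies nearest to CS in both sets, and leaving it out raises the count from 392 to 954.

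The 12 genes with the largest rises, like the 12 with the largest falls, were chosen among called genes whose groups did not overlap. Their separation was therefore fixed by the choice and carries no support. Of the 12 rises, Lcn2 stood first. Lcn2 encodes lipocalin-2, a secreted iron-siderophore carrier of the acute phase (2:32384633-32388252, GRCm38, protein-coding). It was at 0.368, 0.240, 1.62 and 0.936 CPM in CS 1 to 4 and at 26.5, 42.1, 31.4 and 4.11 CPM in PF+CS 1 to 4. PF+CS 4 was the lowest of its group. The log2 change was 4.94 (SE 0.88, adjusted p = 0.0132, edgeR), and the call ended without CS 1 or CS 4 (adjusted p = 0.0576 and 0.0585). It also ended with voom (adjusted p = 0.217), and over the settings tried the log2 change ranged from 2.85 to 5.51. Cebpd, a transcription factor induced in the acute phase (16:15887286-15891031), was at 1.87 to 2.76 CPM in CS and at 13.4, 12.4, 6.01 and 7.20 CPM in PF+CS 1 to 4. It rose by 2.07 (SE 0.30, adjusted p = 0.00189, edgeR) and kept its call without any 1 library.

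Cd14, a co-receptor for bacterial lipopolysaccharide (18:36725067-36726798), had the second smallest adjusted p of the comparison. It was at 0.596 to 0.981 CPM in CS and at 5.78, 5.14, 3.77 and 2.70 CPM in PF+CS 1 to 4. The rise was 2.38 (SE 0.30, adjusted p = 3.9e-05, edgeR) from 32 counts in CS and 163 in PF+CS. Acer2, a Golgi ceramidase (4:86874396-86934822), had the smallest adjusted p. It was at 14.5, 14.1, 13.5 and 16.9 CPM in CS and at 25.7, 31.2, 30.8 and 24.4 CPM in PF+CS, a rise of 0.92 (SE 0.11, adjusted p = 1.33e-05, edgeR). For both genes the call held without any 1 library (highest adjusted p 0.000991 for Cd14 and 0.00048 for Acer2).

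The other large rises spanned several roles. Tmem252 (3.89), a membrane protein of little-known function, and Osmr (1.46), the oncostatin M receptor subunit, kept their calls without any 1 library. So did Pla2g3 (1.73), a secreted phospholipase, Pmaip1 (1.46), a promoter of apoptosis, and Cyyr1 (1.43), a small membrane protein. Cdkn1a (2.98), the cell-cycle inhibitor p21, Angptl4 (1.83), an inhibitor of lipoprotein lipase, and Map3k6 (1.66), a stress kinase, did not. Cdkn1a and Angptl4 lost the call without any of the 7 libraries other than PF+CS 4 (adjusted p 0.0569 to 0.0813), and Map3k6 without 6 of them, all but CS 2 (0.0501 to 0.0703). Ptgs2 (1.95), the inducible prostaglandin synthase, lost it without CS 1, CS 2, CS 4 or PF+CS 1 (0.0663 to 0.099).

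Among the 12 largest falls, Dbp had the most counts of those that kept their call without every single library, and Serpinb1a fell most. Serpinb1a, an inhibitor of neutrophil proteases (13:32842092-32851185), was at 6.35 to 7.48 CPM in CS and at 2.42, 2.05, 2.60 and 4.76 CPM in PF+CS 1 to 4, a fall of 1.24 on the log2 scale (log2 change -1.24, SE 0.21, adjusted p = 0.00143, edgeR). Padi2, which converts arginine to citrulline in proteins and is found in oligodendrocytes, was at 22.5 to 27.7 CPM in CS and at 12.8 to 19.8 CPM in PF+CS (log2 change -0.68, adjusted p = 0.000557). Trim59 (-0.78), a ubiquitin ligase, and Plekho2 (-0.66), a membrane-binding protein, also kept their calls without any 1 library.

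The remaining falls rested on more of the libraries. Sfrp5 (-0.69), a secreted inhibitor of Wnt, lost its call without CS 4 or PF+CS 1 (adjusted p 0.053 to 0.0585), and Gjb1 (-0.66), the myelin gap-junction protein connexin 32, without CS 1, PF+CS 1, PF+CS 2 or PF+CS 3 (0.0623 to 0.0902). Edn3 (-0.87), an endothelin, lost it without CS 1, CS 3, CS 4, PF+CS 2 or PF+CS 3 (0.0672 to 0.106). Slc17a8 (-0.76), the vesicular glutamate transporter VGLUT3, lost it without any library but CS 4 and PF+CS 4 (0.053 to 0.128). Insc (-1.003), a spindle-orientation adaptor, Hpgd (-0.70), which breaks down prostaglandins, and Tmem88b (-0.68), a membrane protein, lost it without any library but PF+CS 4 (0.0521 to 0.147). In PF+CS 4 Tmem88b was at 79.3 CPM, against 50.8 to 52.7 CPM in the other PF+CS libraries and 83.9 to 101 CPM in CS.

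**Figure D2:**
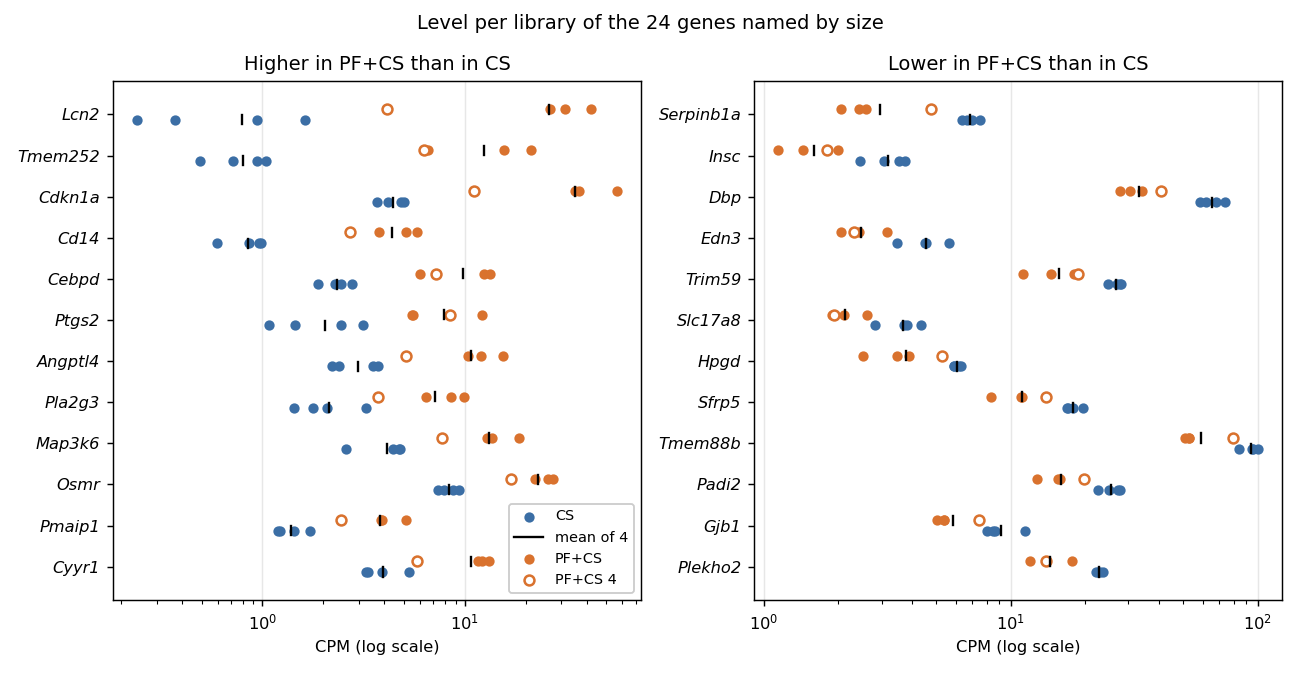
Level in CPM (log axis) of the 12 genes with the largest rises (left) and the 12 with the largest falls (right), chosen among called genes whose groups do not overlap. Each point is 1 library, open circles are PF+CS 4 and ticks are means of 4; PF+CS 4 often lies on the CS side of its group, as for Lcn2 at 4.11 CPM.

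Glucocorticoid-induced genes were the list with the highest median of those described here, 0.858 on the log2 scale against 0.0036 for all genes. Of its 24 members, all tested, 10 rose and 1 fell. Mertk, a receptor kinase of phagocytosis (2:128698956-128802894), was at 40.9 to 43.1 CPM in CS and at 70.9, 71.9, 63.2 and 56.0 CPM in PF+CS 1 to 4. Its groups stood apart, with a rise of 0.65 (SE 0.10, adjusted p = 0.00318, edgeR). Arrdc2, an arrestin-like adaptor, went from 8.10 to 11.7 CPM in CS to 18.6 to 30.5 CPM in PF+CS (log2 change 1.29, SE 0.22, adjusted p = 0.00937). Both kept their calls without any 1 library. Plekhf1 (0.79), an endosomal protein, lost its call only without PF+CS 2 (adjusted p = 0.0568).

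The other rises were those of Pdk4 (1.37), Map3k6, Cdkn1a, Ddit4 (1.11), an inhibitor of mTOR, Hif3a (0.97), Mt2 (0.86), a metallothionein, and Nfkbia (0.86), the inhibitor of NF-kB. Hif3a and Mt2 lost their calls without any library but PF+CS 4 (adjusted p 0.0765 to 0.12), and Ddit4 and Nfkbia without any but PF+CS 3 and PF+CS 4 (0.0602 to 0.156). Nr3c1, the glucocorticoid receptor itself, fell (-0.17, adjusted p = 0.0452) from 173 ± 5.42 to 154 ± 11.2 CPM (SD over 4 libraries). Fkbp5, a chaperone of the receptor and its classic target, was at 38.5 ± 3.30 CPM with free food and 106 ± 43.3 CPM with the ration (SD, n = 4) and missed the threshold (log2 change 1.47, adjusted p = 0.0515). Sgk1 (1.01, adjusted p = 0.0913) and Zbtb16 (1.42, adjusted p = 0.0746) missed it as well. The count of members that rose was 19 without PF+CS 4 and 2 to 5 without any other single library, and Nr3c1 passed in none of those 7 fits.

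The acute phase and IL-6 family list had 16 members tested of 20, of which 7 rose and 0 fell, with a median of 0.685. Ch25h, which makes 25-hydroxycholesterol, was at 0.255 to 1.05 CPM in CS and at 3.36, 2.63, 1.79 and 4.11 CPM in PF+CS 1 to 4. It rose by 2.40 (SE 0.37, adjusted p = 0.000616, edgeR), from 21 counts in CS to 107 in PF+CS. Lrg1, a secreted glycoprotein of the acute phase, rose by 2.64 (adjusted p = 0.00653) from 29 counts to 177. Il6ra (0.76), the interleukin-6 receptor, and A2m (0.38), a protease inhibitor, were called beside Lcn2, Cebpd and Osmr. Il6ra lost its call without CS 1, CS 4, PF+CS 2 or PF+CS 3 (adjusted p 0.0509 to 0.0666), and A2m without any library but PF+CS 4 (0.0584 to 0.216). All 16 members had a positive log2 change. Leaving out 1 library gave 4 to 6 members that rose, except 10 without PF+CS 4.

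Of NF-kB and activated-endothelium genes, 7 of 16 tested (20 listed) rose and 0 fell, with a median of 0.479. Il1r1, the signalling receptor for interleukin-1 (1:40225080-40317257), was at 8.71, 7.19, 8.84 and 12.003 CPM in CS and at 22.4, 31.2, 24.03 and 18.4 CPM in PF+CS. It rose by 1.37 (SE 0.23, adjusted p = 0.00937, edgeR), with no overlap of the groups and a call that held without any 1 library. The selectins, which bind leucocytes to vessel walls, had few counts. Sele had 3 counts in CS and 54 in PF+CS, a ratio of 18.8 (95% counting interval 6.08 to 93.8), and Selp 6 and 69 (interval of the ratio 5.23 to 33.8). These intervals come from counts summed over 4 libraries, cover counting error only and leave out the spread between libraries.

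Sele lost its call without CS 1 or CS 4 (adjusted p 0.0621 to 0.0676), while Selp (adjusted p = 0.00143) kept it in every such fit. Beside Cd14 and Ptgs2 the list held Apold1 (1.42), which endothelial cells induce early, and Nfkbia. Apold1 lost its call without CS 1, CS 2, CS 3 or PF+CS 1 (0.0533 to 0.0672). The count of members that rose was 3 without CS 1, 4 without CS 2, CS 4 or PF+CS 1, and 5 to 7 otherwise. Endothelial markers themselves gave 1 rise among 10 tested, Ly6c1 (0.70, adjusted p = 0.00967), whose reads may be shared with the near-identical Ly6c2. Their summed level was 209 to 254 CPM in CS and 221 to 269 CPM in PF+CS, so the groups overlapped. Interferon-induced genes had a median of -0.265 and no call among 17 tested, but 5 fell without PF+CS 4.

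Among called clock genes, an output gene and repressors fell and activators rose. Dbp, an output factor driven directly by the clock (7:45705088-45710203), was at 67.7, 61.96, 58.5 and 74.1 CPM in CS and at 34.0, 27.7, 30.4 and 40.5 CPM in PF+CS. The log2 change was -0.995 (SE 0.12, adjusted p = 0.00115, edgeR). Bhlhe41, a repressor in the loop (6:145858243-145865558), went from 111 to 120 CPM in CS to 89.5 to 91.7 CPM in PF+CS, a narrow range, with a log2 change of -0.34 (SE 0.05, adjusted p = 0.000216, edgeR). Bhlhe40 (-0.33), its close relative, Cry1 (-0.33), a repressor, and Nr1d2 (-0.15), the REV-ERB beta repressor, fell as well. Npas2 (0.44) and Arntl (0.25), activators that pair with one another, rose.

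The list thus held 2 rises and 5 falls among 20 tested, with a median of -0.118. Per3 (-0.32, adjusted p = 0.0552), Per2 (-0.27, adjusted p = 0.0723) and Nr1d1 (-0.18, adjusted p = 0.183) missed the threshold, and Per1, a clock gene that glucocorticoids also induce, was at 0.04 (adjusted p = 0.805). Dbp, Bhlhe41 and Bhlhe40 kept their calls without any 1 library. Npas2 lost it without CS 1 or PF+CS 1 (0.0665 to 0.0669), Nr1d2 without CS 1, CS 4, PF+CS 2 or PF+CS 3 (0.0528 to 0.106), and Cry1 and Arntl without any library but PF+CS 4 (0.0569 to 0.24). By DESeq2 size factors and by upper-quartile scaling the list held 1 rise. All tissue was taken at 1 clock time, so a shift in phase and a change in level cannot be told apart.

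To show where the clock's own binding motifs occur, the 250 bases before the RefSeq start sites of the called clock genes (GRCm38.p6) were searched on both strands. The E-box CACGTG, bound by the activators, occurs in 6.86% of the 27025 genes with RefSeq promoters of that length. It was found in Bhlhe41 and Cry1, 2 of the 4 falling genes with a promoter in the table. TNGGTCA, a loose form of the ROR element of REV-ERB and ROR receptors, allows any base at N and occurs in 10.5% of those genes. It was found in Arntl, 1 of the 2 rising genes, as TTGGTCA and TCGGTCA. Whether these receptors bind those forms was not tested. These 60-base stretches are shown because they carry the motifs, in capitals, of genes that moved in opposite directions.
Bhlhe41 (chr6:145865534-145865593, minus strand): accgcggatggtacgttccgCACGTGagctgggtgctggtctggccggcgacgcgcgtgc
Cry1 (chr10:85185075-85185134, minus strand): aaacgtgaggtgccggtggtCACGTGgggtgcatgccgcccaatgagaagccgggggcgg
Arntl (chr7:113207245-113207304, plus strand): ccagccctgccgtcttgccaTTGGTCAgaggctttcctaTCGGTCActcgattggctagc
A match is only a run of letters. The motif starts 153 bases before the start site in Bhlhe41 and 60 bases before it in Cry1. The first match in Arntl starts 200 bases before a RefSeq start site and 246 bases before another.

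Of 24 cytosolic chaperones and cochaperones tested, 5 rose and 0 fell, and all 24 had a positive log2 change, with a median of 0.222. Hsp90aa1, the inducible cytosolic HSP90 (12:110690605-110702728), was at 726, 721, 711 and 727 CPM in CS and at 909, 808, 869 and 844 CPM in PF+CS. The groups did not overlap, and the rise was 0.25 (SE 0.05, adjusted p = 0.00401, edgeR). Hsph1, a nucleotide exchange factor for HSP70 (5:149614287-149636376), went from 296 to 310 CPM in CS to 378.5 to 450.4 CPM in PF+CS, a rise of 0.45 (SE 0.08, adjusted p = 0.01). Both kept their calls without any 1 library.

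Hsp90ab1 (0.15), the constitutive HSP90, and the HSP90 activators Ahsa1 (0.25) and Ahsa2 (0.44) rose as well. They lost their calls without CS 1 or CS 4, among others (adjusted p 0.0513 to 0.145). Hspa1a, the inducible HSP70, was at 0.84 (adjusted p = 0.136) and may share reads with its near-identical copy Hspa1b. The count of members that rose was 11 without PF+CS 4 and 2 to 4 without any other single library. Among endoplasmic reticulum chaperones 1 of 20 rose, Hsp90b1 (0.18, adjusted p = 0.0188), with a median of 0.154 and 9 that rose without PF+CS 4. Hsp90b1 itself lost its call without CS 1, CS 3, CS 4, PF+CS 1 or PF+CS 3 (0.0509 to 0.111). NRF2 antioxidant targets gave no call among 14.

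TTCNNGAA, a short form of the heat shock element bound by the heat shock factor, was found in 1 of the 3 called chaperone genes with a promoter in the table, Hsph1. It occurs in 8.11% of genes with RefSeq promoters. The form GAANNTTC was found in none of the 3 and occurs in 7.73% of genes. Hsph1 is shown because it had the larger change of the chaperones that kept their call without any 1 library. The match, in capitals, starts 33 bases before a RefSeq start site and 54 bases before another.
Hsph1 (chr5:149636337-149636396, minus strand): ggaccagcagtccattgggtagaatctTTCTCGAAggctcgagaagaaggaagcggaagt
The palindromic glucocorticoid response element occurs in 0.44% of genes with RefSeq promoters. It was found in 1 of the 10 rising glucocorticoid-induced genes, Map3k6, starting 181 bases before its start site.
Map3k6 (chr4:133240617-133240676, plus strand): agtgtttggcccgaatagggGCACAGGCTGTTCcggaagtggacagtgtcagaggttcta

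Fuel and lipid genes moved in part. Of 19 fuel-switch genes tested 3 rose and 0 fell, with a median of 0.0123. Among them were Pdk4, which slows glucose oxidation, and Angptl4. Pdk4 was at 9.08, 8.39, 10.5 and 9.36 CPM in CS and at 25.9, 29.2, 25.1 and 16.3 CPM in PF+CS, without overlap. Pdk4 lost its call without any library but CS 3 and PF+CS 4 (adjusted p 0.0513 to 0.0648), and without PF+CS 4 the list held 7 rises and 2 falls. Sesn1 (0.36), a stress-induced inhibitor of mTORC1, and Bcl6 (0.69), a transcriptional repressor, were the 2 rises among 13 insulin and FoxO targets. Bcl6 lost its call without any library but PF+CS 4 (0.0832 to 0.137).

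Insig1, which holds the sterol sensor in the endoplasmic reticulum (5:28071363-28078662), was at 89.2, 82.9, 86.4 and 81.2 CPM in CS and at 65.6, 70.3, 65.0 and 76.7 CPM in PF+CS. It fell (log2 change -0.29, SE 0.05, adjusted p = 0.00263, edgeR) and kept its call without any 1 library. Hsd17b7 (-0.36), of cholesterol synthesis, was the other fall among 22 tested, and 3 of the 22 had a positive log2 change. It lost its call without CS 1, CS 4, PF+CS 1, PF+CS 2 or PF+CS 3 (adjusted p 0.115 to 0.178), and 7 members fell without PF+CS 4. Of 14 fatty acid synthesis genes 3 fell, Srebf1 (-0.36), their main transcriptional activator, and the desaturases Scd1 (-0.20) and Scd2 (-0.12). Acsl3 (0.27), an acyl-CoA synthetase, rose. Srebf1 lost its call without CS 1 (0.0505), Scd1 without CS 1, CS 4, PF+CS 1 or PF+CS 3 (0.0521 to 0.0712), and Scd2 without any library but PF+CS 4 (0.0647 to 0.154).

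**Figure D3:**
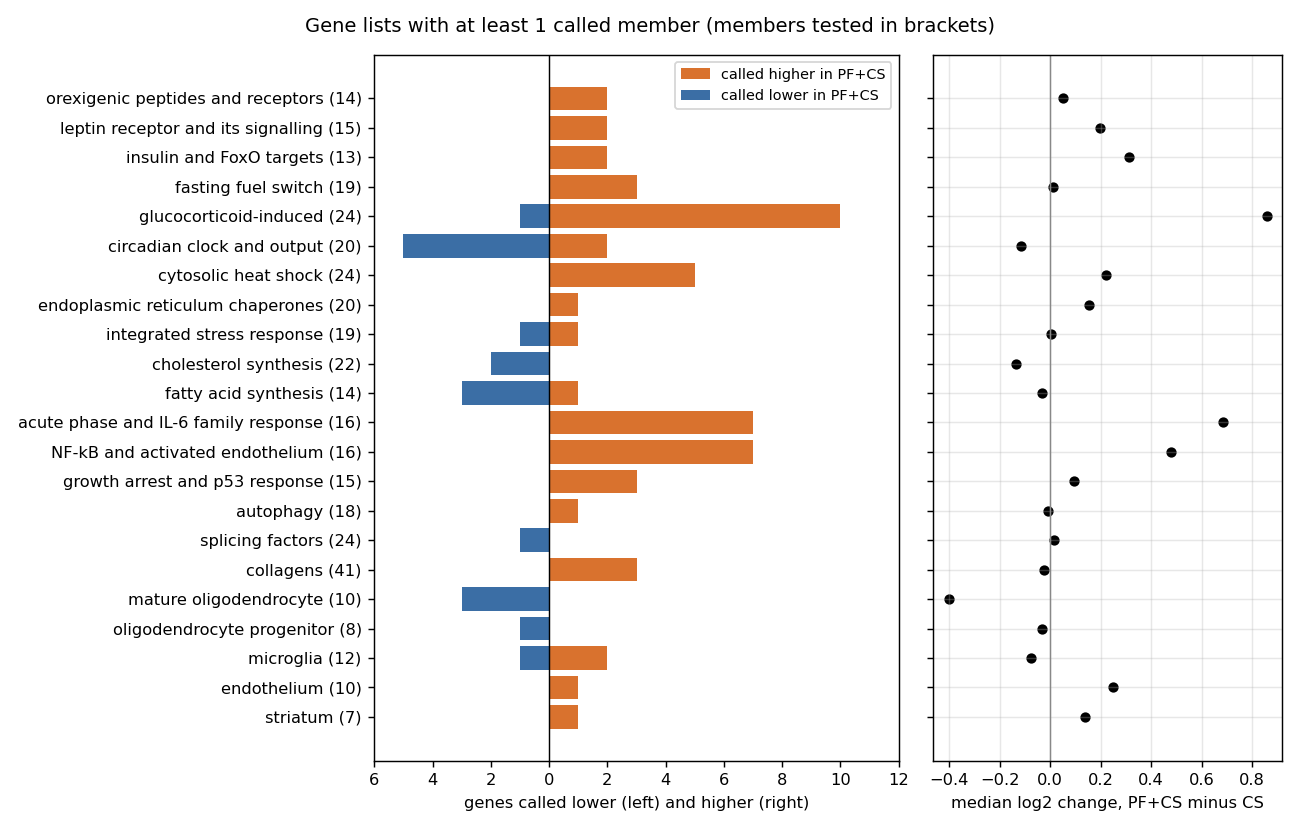
Gene lists with at least 1 called member. Left, members called lower (drawn to the left) and higher (to the right) in PF+CS than in CS, with the members tested in brackets. Right, the median log2 change over the tested members. Glucocorticoid-induced genes show 10 rises and 1 fall, and clock genes 2 rises and 5 falls.

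The series asks which appetite genes of the hypothalamus respond to celastrol, and among feeding genes few were called when the ration was added. Of 14 appetite-raising genes 2 rose. Ghsr, the ghrelin receptor (3:27371351-27378010), was at 9.08, 8.15, 9.79 and 9.36 CPM in CS and at 15.98, 16.8, 16.4 and 9.13 CPM in PF+CS 1 to 4. PF+CS 4 lay within the CS range and the other 3 above it, with a rise of 0.69 (SE 0.16, adjusted p = 0.0245, edgeR). Npy1r, a receptor for neuropeptide Y (8:66697192-66706792), went from 16.2 to 19.4 CPM in CS to 19.8 to 25.6 CPM in PF+CS, a rise of 0.35 (SE 0.09, adjusted p = 0.04). Both lost their calls without any library but PF+CS 4 (0.0507 to 0.185).

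The peptides themselves were not called. Agrp, the hunger peptide that blocks melanocortin receptors, was at 3.93, 3.00, 2.19 and 2.55 CPM in CS and at 4.31, 3.65, 4.39 and 3.21 CPM in PF+CS (log2 change 0.45, SE 0.20, adjusted p = 0.239, edgeR). Its annotated locus overlaps Ripor1, Gm5914 and Ctcf, and the counting is not stated to use strand. Npy (0.07, SE 0.11, adjusted p = 0.846) and Cartpt (0.01, SE 0.10, adjusted p = 0.978) had overlapping groups. Pomc, whose product is cut into melanocortins that curb appetite, was at 15.97 to 21.6 CPM in CS and at 16.3 to 20.2 CPM in PF+CS (log2 change -0.10, SE 0.14, adjusted p = 0.795). None of 19 appetite-lowering genes, 12 neuroendocrine hormones and receptors or 12 granins and processing enzymes was called, and without PF+CS 4 the first and the last gave 1 and 2 falls.

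Of 15 genes on the leptin signalling list 2 rose, with a median of 0.199. Ptpn1, the phosphatase that restrains the leptin receptor (2:167932057-167979385), was at 28.3, 29.7, 31.0 and 31.0 CPM in CS and at 39.2, 40.9, 35.4 and 32.1 CPM in PF+CS. It rose by 0.30 (SE 0.08, adjusted p = 0.0326, edgeR) without overlap, and lost its call without any library but PF+CS 4 (0.0623 to 0.14). The other was Il1r1, described above, an interleukin-1 receptor rather than a leptin signalling gene. It is counted in the activated-endothelium list as well. Lepr, the leptin receptor, was at 15.0 to 24.1 CPM in CS and 20.4 to 29.6 CPM in PF+CS (log2 change 0.27, SE 0.20, adjusted p = 0.574). Socs3, an inhibitor of leptin signalling, was at 3.31, 3.95, 3.23 and 3.92 CPM in CS and at 9.25, 11.2, 7.35 and 3.08 CPM in PF+CS 1 to 4. It did not pass (log2 change 1.11, SE 0.41, adjusted p = 0.185) but did without PF+CS 4, the lowest of the 8 libraries (1.34, adjusted p = 0.0292). Without any other single library of the comparison its adjusted p was 0.263 to 0.388. In the authors' deposited table Socs3 had an adjusted p of 0.0073. Without PF+CS 4, 5 members of the list rose, Il1r1 among them.

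Hdac6, the cytoplasmic deacetylase named in the series title, was at 56.4 to 60.4 CPM in CS and at 55.0 to 63.7 CPM in PF+CS. Its groups overlapped (log2 change 0.03, SE 0.06, adjusted p = 0.854, edgeR). None of the 18 histone deacetylases and sirtuins was called, also without PF+CS 4.

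**Figure D4:**
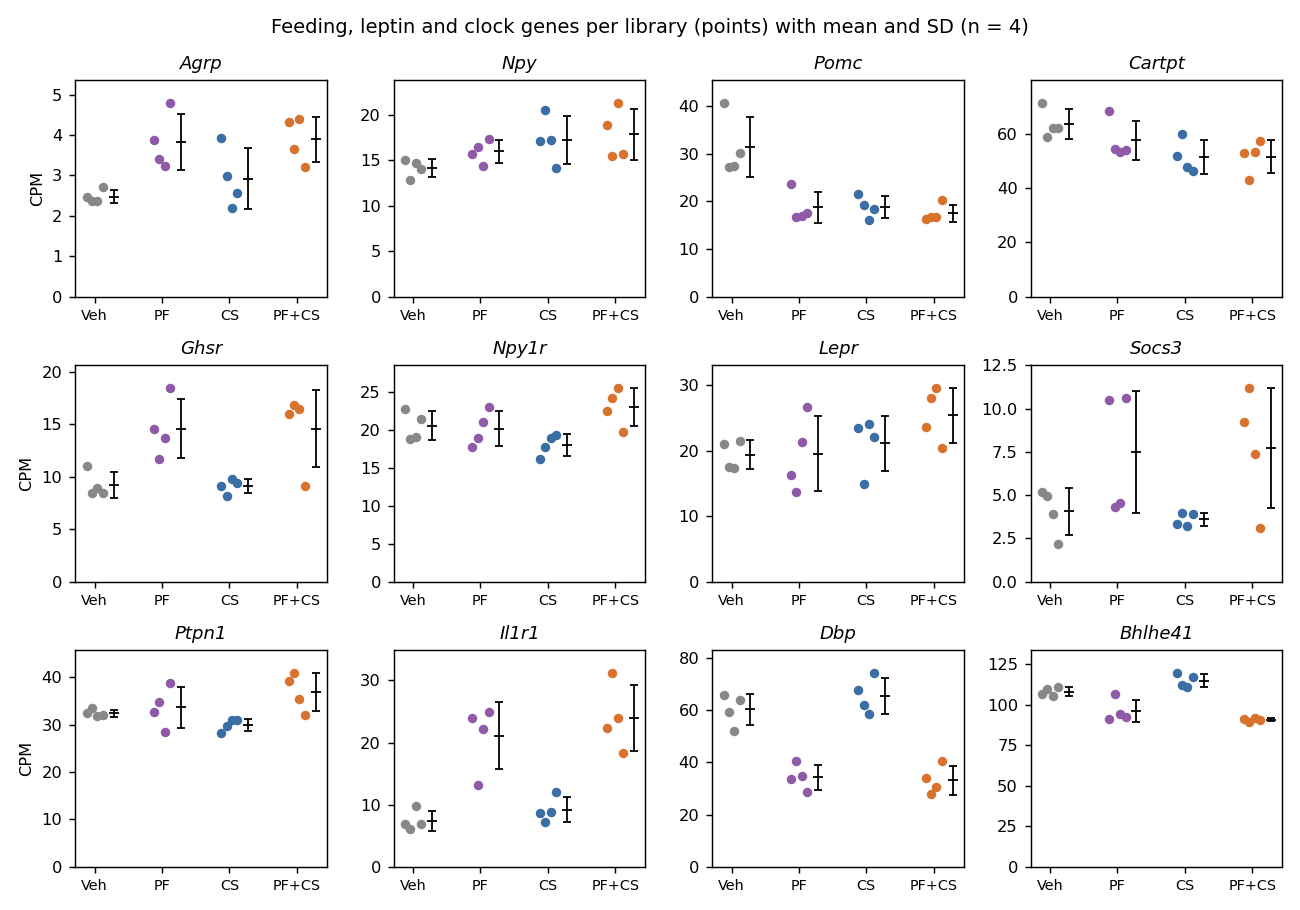
Level in CPM (vertical axis from 0) of 12 genes from the feeding, leptin and clock lists in all 4 groups. Points are libraries in order of their number, with the mean and SD of 4 beside them. Il1r1 and Dbp separate the groups given the ration from those fed freely, and PF+CS 4 is the low point for Ghsr at 9.13 CPM and Socs3 at 3.08 CPM.

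Markers of mature oligodendrocytes, the myelin-forming cells, were lower with the ration. Of 10 tested, 3 fell and 9 had a negative log2 change, with a median of -0.403. Their summed level was 3667 to 4026 CPM in CS and 3004 to 3569 CPM in PF+CS. Ermn, a myelin cytoskeletal protein, was at 89.3, 82.4, 81.3 and 82.2 CPM in CS and at 56.9, 62.9, 64.5 and 72.0 CPM in PF+CS, a fall without overlap (log2 change -0.39, SE 0.09, adjusted p = 0.0216, edgeR). Aspa (-0.75), which splits N-acetylaspartate, and Mbp (-0.22), myelin basic protein, also fell. Bcas1 (-0.35), of newly formed oligodendrocytes, was the 1 fall of 8 progenitor markers.

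Aspa, Mbp and Bcas1 lost their calls without any library but PF+CS 4 (adjusted p 0.0507 to 0.146) and Ermn without CS 1, CS 4, PF+CS 1, PF+CS 2 or PF+CS 3 (0.0613 to 0.0742). Mbp also lost its call in 10 of 14 other settings, among them voom (adjusted p = 0.0692), no filter on low counts (0.0689) and the GC and length offset (0.0789). Without PF+CS 4, 9 of the 10 mature markers fell. The large falls of Gjb1 and Tmem88b went in the same direction. Microglial markers were mixed: C1qb (0.40) and C1qa (0.33), subunits of complement C1q, rose and P2ry13 (-0.66), a purine receptor, fell, with a summed level of 342 to 371 CPM in CS and 311 to 378 CPM in PF+CS. C1qb kept its call without any 1 library, C1qa lost it without CS 2, CS 3 or PF+CS 2 (0.0504 to 0.0571), and P2ry13 without any library but CS 4 and PF+CS 3 (0.0534 to 0.162). Markers of astrocytes, neurons, tanycytes, pericytes, meninges, choroid plexus and thalamus gave no call, and of 7 striatal markers Ppp1r1b (0.61, adjusted p = 0.0281) rose, a call lost without any library but CS 3 and PF+CS 4 (0.0632 to 0.109). Without PF+CS 4 astrocyte markers gave 1 rise and 2 falls, tanycyte and thalamus markers 1 rise each and neuron markers 1 fall.

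Smaller counts came from other lists. Of 41 collagens tested 3 rose, the vessel basement membrane chains Col4a2 (0.29, adjusted p = 0.00883) and Col4a1 (0.46, adjusted p = 0.0136), and Col5a3 (0.59, adjusted p = 0.028). Growth-arrest genes gave 3 rises of 15, Cdkn1a, Sesn1 and Gadd45g (0.88), with 6 without PF+CS 4. The integrated stress response gave 1 rise, Ddit4, and 1 fall of 19, Slc7a5 (-0.25), an amino acid transporter. Autophagy gave 1 rise of 18, Map1lc3b (0.22), and splicing factors 1 fall of 24, Rbm3 (-0.37), a cold-induced RNA-binding protein. Col4a2 and Sesn1 kept their calls without any 1 library, and the others in these lists lost theirs without 4 to 7 of the 8 (adjusted p 0.0505 to 0.146). No ribosomal protein gene (79 tested), oxidative phosphorylation gene (73), thyroid signalling gene (11) or immediate early gene (17) was called. Without PF+CS 4 the thyroid list gave 3 rises and 1 fall, the immediate early list 2 rises and oxidative phosphorylation 1 fall. That fit called 573 rises and 381 falls over all 14775 genes, so nothing is read from these few.

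Ration against free food without celastrol moved many of these genes in the same direction, by less in 302 of the 392. The intake of Veh mice is not given here, so the cut in food may differ from that under celastrol. The median absolute log2 change of the 392 was 0.285 without and 0.384 with celastrol, and since they were chosen on the second, nothing is read from that gap. PF minus Veh had 537 genes called (3.63%), and 164 genes were called in both comparisons, 41.8% of the 392 and 30.5% of the 537. All 164 moved in the same direction, and 379 of the 392 had the same sign. The share with the same sign among all genes tested was not computed, so these counts have no background beside them. Dbp was at 60.3 ± 5.99 CPM in Veh and 34.3 ± 4.87 CPM in PF, and under celastrol at 65.6 ± 6.87 CPM with free food and 33.1 ± 5.52 CPM with the ration (SD, n = 4), which gave log2 changes of -0.81 without and -0.995 with celastrol. Acer2 rose by 1.01 and 0.92, Osmr by 1.35 and 1.46, and Il1r1 by 1.48 and 1.37.

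The interaction asked whether the difference between ration and free food differed between celastrol and DMSO. It takes no account of how much the ration cut intake in either. By edgeR 0 genes were called (0%), as by DESeq2 and voom (0 each), and the smallest adjusted p was 0.913. At an unadjusted p of 0.05 there were 741 genes (5.02%), 47 of them among the 392. The median SE of the interaction was 0.121 on the log2 scale against 0.0847 for PF+CS minus CS. In simulated counts with the same libraries and 14775 genes, the interaction recovered 64 of 100 true 1.5-fold changes and 75 of 100 true 2-fold changes.

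Some genes had unequal values in the 2 comparisons, none of which passed. Pomc changed by -0.75 without celastrol and -0.10 with it (interaction 0.65, SE 0.19, unadjusted p = 0.00304, adjusted p = 0.913). Its levels were 31.4 ± 6.32 CPM in Veh, 18.7 ± 3.31 CPM in PF, 18.8 ± 2.32 CPM in CS and 17.5 ± 1.81 CPM in PF+CS (SD, n = 4), with the mean of Veh apart from the other 3. Slc17a8 was at 0.10 without and -0.76 with celastrol (interaction -0.86, SE 0.30, unadjusted p = 0.00705), and Cd14 at 1.18 and 2.38 (interaction 1.20, SE 0.43, unadjusted p = 0.00836).

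**Figure D5:**
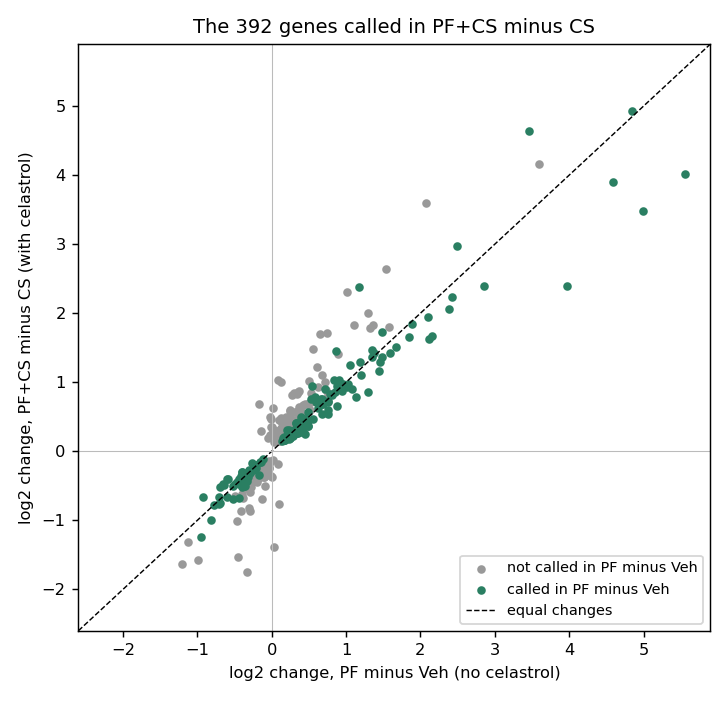
Log2 change of the 392 genes called in PF+CS minus CS (vertical axis, with celastrol) against that in PF minus Veh (horizontal axis, without celastrol), each point 1 gene, green where also called in PF minus Veh (164 genes). The dashed line marks equal changes; 379 genes have the same sign in both, and the genes were chosen on the vertical axis.

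In the authors' deposited table computed from the CS and PF+CS columns, 521 genes had an adjusted p of at most 0.05, 350 higher and 171 lower. Of these, 310 were among the 392 called by edgeR, 79.1% of the edgeR calls and 59.5% of theirs, and all 310 had the same direction. The authors' deposited table gives Dbp a log2 change of -0.73 (adjusted p = 1.75e-19), Osmr 0.774 and Il1r1 0.678. Its largest absolute log2 change was 0.774, so sizes there are not set beside those of edgeR.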

How the data were processed

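Gene counts as deposited by the authors, in whole numbers, were the main data. A second table deposited by the authors was read as FPKM, since its values are fractions with similar totals in each library and its name points to Cufflinks. They also deposited comparison tables with a mean of normalised counts (another unit), a log2 fold change with its SE and a p-value with its adjusted p-value. Per the submitters' processing notes the build was GRCm38; an aligner and a counter are not given in these sources. Per the labels' protocols libraries came from a SMARTer kit for mRNA, strand not stated. Columns of no sample numbered 0. Of 24047 names, 27 had been turned into dates and are not named here.

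All 16 libraries were fitted in edgeR 4.0.16 (R 4.3.3) with TMM scaling, filterByExpr at a minimum count of 10 and robust quasi-likelihood tests, BH-adjusted over 14775 genes; limma 3.58.1 and DESeq2 1.42.0 gave alternatives. Positions are from GENCODE M21 and promoters from RefSeq. No replicate pair agreed within sampling noise. On simulated counts, PF+CS minus CS recovered 80 of 100 true 1.5-fold changes and 85 of 100 true 2-fold changes among 14775 genes, with 9 false calls. The simulation drew each gene independently and held no shift shared across a library. Named genes were the 12 largest rises and falls among called genes without overlap and averaging at least 1 in log2 CPM, the 2 smallest adjusted p each way, up to 4 called members per list and 9 followed genes; other members are named only within a list's count. The comparison, lists and motifs were chosen with earlier results of these data known. Alternatives were other scalings, filters and tools, FPKM, a replicate block, a GC and length offset, and libraries left out. A gene that the naming rule selects is not reported here.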

Additional observations from a re-analysis of the deposited data

Results flagged for a closer look

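In groups of 4, a library was flagged where its gap to the nearest other library, as a share of the group's range, exceeded Dixon's 95% critical value; chance flags about 1 in 20 groups, and 8 flags came from 156 groups of named genes. PF+CS 4 stood apart from the other PF+CS libraries in 4 of them. It was highest for Tmem88b (79.3 CPM, next 52.7), Gjb1 (7.45 CPM, next 5.38) and Pomc (20.2 CPM, next 16.8), and lowest for Ghsr (9.13 CPM, next 15.98). PF+CS 3 was highest for P2ry13 (7.53 CPM, next 4.57). CS 1 was lowest for Map3k6 (2.58 CPM, next 4.43) and highest for Ermn (89.3 CPM, next 82.4) and C1qb (23.2 CPM, next 19.8). For the called genes among them the value without each library is given above.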

How the results depend on the processing

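No named gene's called change reversed, and the interaction had 0 calls under every setting run. Against 392 calls (264 higher, 128 lower), the count lay between 375 and 478 under other scalings, filters and count tools and with a GC and length offset, which gave 197 lower. FPKM values with a pseudocount of 0.1 gave 78 (45, 33), with 1 gave 53 (27, 26) and without a filter 45 (32, 13). The 2 groups alone gave 618, 238 of them lower. Without the 5 libraries low in meningeal markers there were 996 (595, 401). An adjusted p of 0.01 left 90 (67, 23) and one of 0.1 gave 771 (481, 290). Leaving out 1 library gave 113 to 954 (84 to 573 higher, 29 to 381 lower). With the replicate block there were 223 (156, 67), and with the block and the GC and length offset 263, 169 of them higher. Deviations of same-numbered CS and PF+CS libraries correlated at -0.28 to 0.079, and those of differently numbered ones at -0.27 to 0.37. So few values cannot settle whether the replicate numbers pair the samples. The block kept 48 of 71 called named genes. Of the 24 genes named by size, 12 kept their call without any 1 library and 9 in all other settings. List counts without PF+CS 4 and without the libraries low in meningeal markers were added after seeing the data. Genes with few counts, such as Sele, are limited by depth.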

Other observations

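Further called genes, chosen after their values were seen and given without a test of the groups they form, touched cell types and pathways outside the lists. Innate immune genes were among the rises: C3 (0.71, adjusted p = 0.0175, edgeR) and C7 (1.72, adjusted p = 0.00143), of complement, Tlr7 (1.03, adjusted p = 0.0145), a sensor of RNA, Il17ra (0.72, adjusted p = 0.00729), an interleukin-17 receptor chain, and Fas (0.86, adjusted p = 0.00846), a death receptor. Other immune genes were called lower, among them Nlrp1b (-1.38, adjusted p = 0.0327) and Il33 (-0.48, adjusted p = 0.0456). Nlrp1b and Il33 lost their calls without any library but PF+CS 4 (0.0509 to 0.159). C3 was at 6.99, 7.19, 5.89 and 7.58 CPM in CS and at 9.78, 9.25, 13.4 and 12.7 CPM in PF+CS, without overlap. S100a9, a calcium-binding protein of neutrophils, had 7 counts in CS and 88 in PF+CS, a ratio of 13.1 (95% counting interval 6.1 to 33.5). Serpina3f, of a gene cluster with near-identical copies, had 2 and 60, a ratio of 31.3 (8.28 to 264).

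Other single genes known from vessels and glia were called, while of the marker lists endothelium had 1 rise of 10 and astrocytes none. Slc2a1, the glucose transporter of the blood-brain barrier, was at 74.7, 77.4, 85.4 and 78.5 CPM in CS and at 131, 159, 130 and 100.4 CPM in PF+CS (log2 change 0.72, SE 0.16, adjusted p = 0.0381). Igfbp7 (0.97, adjusted p = 0.000616), a secreted protein of vessels, Stab2 (1.25, adjusted p = 0.00729), a scavenger receptor, and Vwf (0.73, adjusted p = 0.0326), von Willebrand factor, rose as well. Fam107a, an actin-binding protein that glucocorticoids induce, went from 223 to 248 CPM in CS to 283 to 460 CPM in PF+CS (0.71, adjusted p = 0.0276). Tfrc (-0.41, adjusted p = 0.0164), the transferrin receptor, fell, and bulk tissue does not show in which cells. In the oligodendrocyte lineage the transcription factors Sox10 (-0.40, adjusted p = 0.0268) and Nkx2-2 (-0.58, adjusted p = 0.00751) fell. Of the marker lists of this lineage, 3 of 10 mature markers fell and 1 of 8 progenitor markers. The progenitor list had 4 positive log2 changes and a median of -0.034. Nr3c2, the mineralocorticoid receptor, fell beside Nr3c1 (-0.25, adjusted p = 0.0223). C7, Il17ra, Fas, Igfbp7, Stab2, Nkx2-2 and Serpina3f kept their calls without any 1 library. Slc2a1 and Fam107a lost theirs without any library but PF+CS 4 (adjusted p 0.0588 to 0.115), Sox10 without any but PF+CS 3 and PF+CS 4 (0.054 to 0.116), C3 without CS 1, CS 3 or PF+CS 3 (0.0632 to 0.0939) and Tlr7 without CS 1, CS 4 or PF+CS 2 (0.0553 to 0.0596). S100a9 lost its call without CS 1, CS 2, CS 3, PF+CS 2 or PF+CS 3 (0.0559 to 0.0787), Vwf without CS 1, CS 2, PF+CS 1, PF+CS 2 or PF+CS 3 (0.0663 to 0.103), Tfrc without CS 1, CS 4, PF+CS 1, PF+CS 2 or PF+CS 3 (0.0605 to 0.07) and Nr3c2 without CS 3, CS 4, PF+CS 1, PF+CS 2 or PF+CS 3 (0.0627 to 0.101).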
